A study of Mus musculus with 4 samples.

Results

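Bile acid synthesis and transport were followed in fasted and re-fed mouse liver through 9 genes: the enzymes Cyp7a1, Cyp8b1, Cyp27a1, Cyp7b1 and Baat, the nuclear receptors Nr0b2 and Nr1h4, and the transporters Slc10a1 and Abcb11. All gene probes whose name in the array files equals 1 of these symbols were taken, which gave 10 of 39429 gene probes, 1 per gene except for 2 of Slc10a1. No further probe was assigned to these genes by its accession. The mice were male C57BL/6J animals (strain label C57/Bl6) of 8 to 12 weeks. Fasted mice had no food for 24 h, and re-fed mice had no food for 24 h and then food for 2 h. Both groups thus carried the same fast, and no group without a fast was compared. By the paper, fasted mice were killed at the end of the fast, so the re-fed mice were killed 2 h later. RNA of 4 fasted and 4 re-fed livers was compared on 4 two-colour arrays, each holding 1 liver of either group, paired at random and labelled with the dyes Cy5 and Cy3. The fasted liver carried Cy5 on replicates 1 and 2 and Cy3 on replicates 3 and 4. Each array counts as 1 replicate (n = 4).

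The liver makes bile acids from cholesterol. The classic route starts with the 7-alpha-hydroxylase Cyp7a1, its rate-limiting enzyme, and the 12-alpha-hydroxylase Cyp8b1 directs intermediates towards cholic acid. The alternative route runs through the sterol 27-hydroxylase Cyp27a1 and the oxysterol 7-alpha-hydroxylase Cyp7b1, and Baat joins finished bile acids to taurine or glycine. Bile acids bind the receptor FXR (Nr1h4), which induces the repressor SHP (Nr0b2) and the canalicular export pump Abcb11, while Slc10a1 returns bile acids from blood to the hepatocyte.

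All 10 probes were well above background on the 4 arrays in both channels. They were kept among 19721 probes that were well above background on all arrays in at least 1 condition. Gene spots had a median intensity of 40 to 96 over both channels against local backgrounds of 20 to 35. Precision is limited by having only 4 arrays. All 10 hepatocyte markers, among them Alb and Ttr, were well above background in every liver. The refed liver of replicate 3 stood apart. The mean log2 ratio over 16 pancreatic acinar genes was -3.39 on that array and between -0.05 and 0.02 on the others, led by Try4 at -6.09. Other cell types had 5 of 10 cholangiocyte and gallbladder markers, 6 of 6 Kupffer cell markers and 3 of 3 blood markers well above background in every liver. The mean log2 ratio of the Kupffer cell list was 0.54, -0.25, 0.54 and -0.21 on replicates 1 to 4, and that of the blood list was 1.01, -0.26, 1.53 and 0.21, so both lists were highest on replicates 1 and 3. Their part in the values of the members was not tested. In whole liver, fewer cells of a type and less RNA per cell cannot be told apart.

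Of the 10 probes, the Cyp8b1 probe was the only one called higher in fasted liver, and no member was called lower. A call needed a 1.5-fold change with an adjusted p below 0.10 in limma, which 1.7% of the kept probes passed upwards and 2.08% downwards (335 and 410 probes, or 230 and 635 with median centring in place of loess). At an unadjusted p under 0.05, 3 of the 10 probes were higher and 0 were lower, against 9.84% and 11.8% of the kept probes. The 3 higher ones were those of Cyp8b1, Nr1h4 (1.16-fold) and 1 of the 2 Slc10a1 probes. That Slc10a1 probe shares letters with probes of other genes, and the other Slc10a1 probe was at a log2 ratio of -0.03. The rebuilt SAM test gave the same counts of 1 and 0 called. The median log2 ratio of fasted over refed liver was 0.0020 over the member probes and -0.0011 over all kept probes. Ratios had the same sign on all 4 arrays for 2 of the 10 probes, those of Cyp8b1 and Nr1h4, compared with 29.6% of the kept probes.

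**Figure D1:**
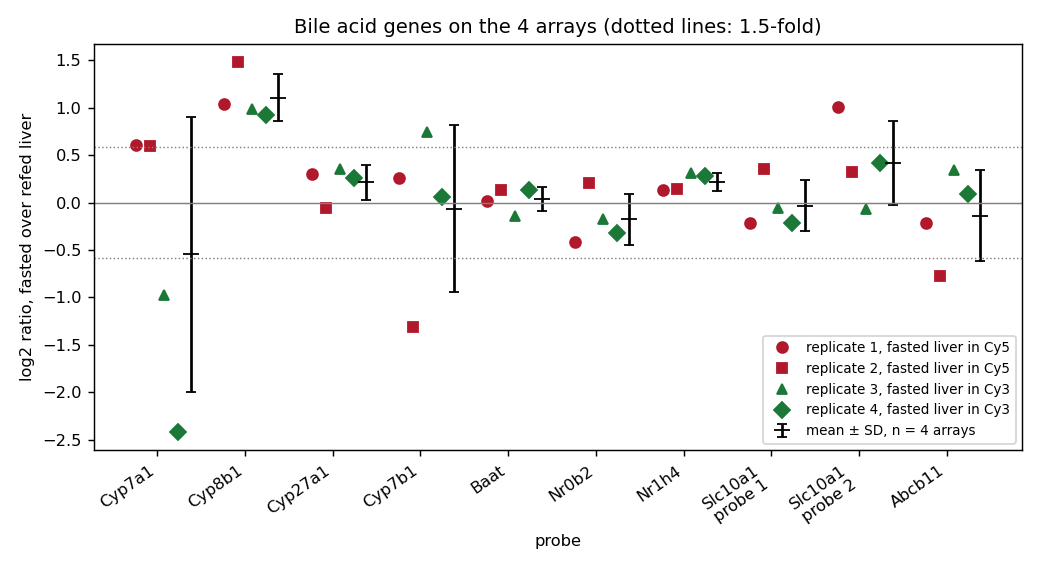
Log2 ratio of fasted over refed liver for the 10 probes on each array, with the dye of the fasted liver in colour and the mean ± SD of the 4 arrays in black. The 4 points of Cyp8b1 lie between 0.93 and 1.48, while those of Cyp7a1 run from 0.61 down to -2.42 and split by dye orientation.

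Cyp8b1, the sterol 12-alpha-hydroxylase, was read by a probe at chr9:121824595-121824654 on the minus strand (mm9, the build of the files). Exon, intron or UTR positions of the probes are not given in the files. The probe is shown because the only called change among the members rests on it. It shares no run of 16 bases with another probe.
Cyp8b1 probe: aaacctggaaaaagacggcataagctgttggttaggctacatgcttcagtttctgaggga
Its log2 levels, the intensities of single channels after normalization within and between arrays, were 11.23, 11.04, 10.63 and 10.78 in the fasted livers of replicates 1 to 4, and 10.19, 9.56, 9.65 and 9.85 in the refed livers. All 4 fasted livers were thus above all 4 refed livers, by at least 0.44. Among all kept probes, 13.6% had groups that did not overlap in either direction, and Cyp8b1 was the only member among them. The log2 ratios were 1.04, 1.48, 0.98 and 0.93. Cyp8b1 rose by 1.11 ± 0.25 (SD, n = 4), which is 2.15-fold with a 95% interval of 1.80 to 2.59 and an adjusted p of 0.00679 in limma. With a dye term in the model its adjusted p was 0.00167. Without replicate 3, whose refed liver stood apart, the ratio was 1.15 with an adjusted p of 0.0355, and without replicate 1 it was 1.13 with an adjusted p of 0.0187. The mean ratio of the hepatocyte markers was 0.27, 0.44, 0.10 and 0.05 on the 4 arrays, and its part in the Cyp8b1 value was not tested. The call was lost where normexp, the background correction, was fitted on all spots, including those with extreme local backgrounds (0.75, adjusted p of 0.559).

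Cyp7a1, which opens the classic route, was not called and had the widest spread of the members. Its log2 levels were 12.54, 11.90, 10.06 and 9.55 in the fasted livers and 11.93, 11.30, 11.03 and 11.97 in the refed livers (probe at chr4:6193456-6193515, minus strand). The refed livers lay within 0.93 of each other, whereas the fasted livers spanned 2.99, with 2 livers near or above the highest refed liver and 2 below the lowest. On the 4 arrays the log2 ratios were 0.61, 0.60, -0.98 and -2.42. Their mean was -0.55 ± 1.45 (SD, n = 4), with a 95% interval of -1.76 to 0.67 and an adjusted p of 0.611 in limma. An SD this large was found for 23 kept probes, 0.117% of all. The interval includes changes of 1.5-fold and more in either direction, and the mean turned to 0.08 without replicate 4.

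The Cyp7a1 ratios also followed the dye. Their mean was 0.60 where the fasted liver carried Cy5 and -1.70 where it carried Cy3. The dye term, which is the part of the ratio that goes with Cy5 over Cy3, was 1.15 ± 0.22 (SE) with an adjusted p of 0.0464 in limma. Dye terms passed an adjusted p of 0.10 for 14.7% of the kept probes and for 2 of the members, Cyp7a1 and Abcb11. Each dye orientation holds its own livers, so that the dye and a difference between livers cannot be told apart for this probe. Among the refed livers, those in Cy5 were at 11.03 and 11.97 and those in Cy3 at 11.93 and 11.30, so these overlapped. Among the fasted livers, both in Cy5 were at least 1.85 above both in Cy3.

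**Figure D2:**
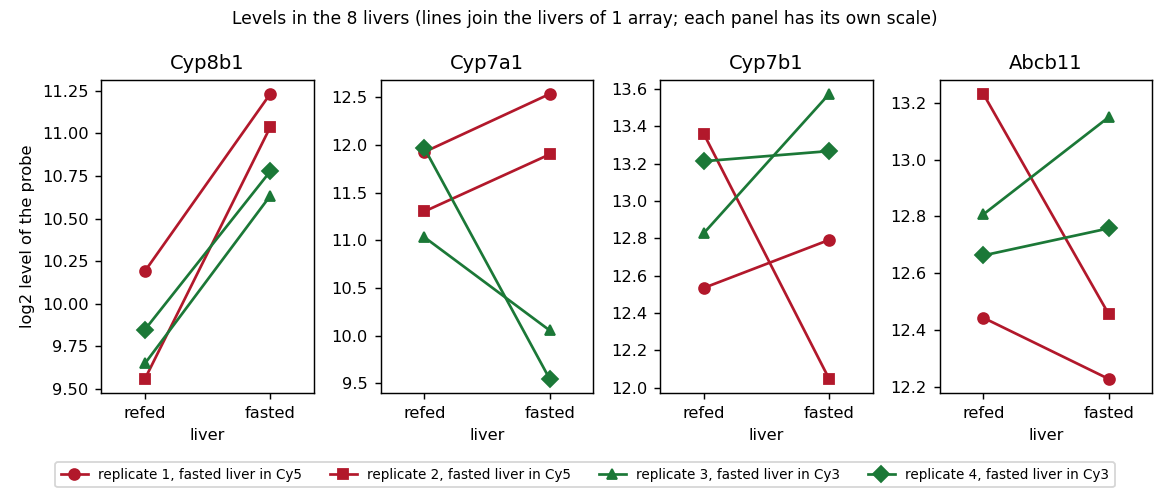
Log2 level of 4 probes in each liver, after normalization within and between arrays, with a line joining the refed and the fasted liver of each array. All 4 lines of Cyp8b1 go up, while those of Cyp7a1, Cyp7b1 and Abcb11 go both ways.

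Neither enzyme of the alternative route was called. Cyp27a1, the sterol 27-hydroxylase, was printed 10 times on each array at 1 probe (chr1:74782203-74782262, plus strand). Its log2 levels were between 10.04 and 10.36 in the fasted livers and between 9.74 and 10.20 in the refed livers, so that the groups overlapped. Its log2 ratios were 0.30, -0.06, 0.36 and 0.26, with a mean of 0.21 ± 0.19 (SD, n = 4) and an adjusted p of 0.249. The SD between the 10 spots of an array was 0.11, 0.14, 0.10 and 0.18, against a median of 0.11 over the 247 kept probes with at least 5 spots. The negative ratio on replicate 2 had spots from -0.36 to 0.06.

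Cyp7b1, the oxysterol 7-alpha-hydroxylase, varied more between arrays than Cyp27a1 (probe at chr3:17972286-17972345, minus strand). Its log2 levels were 12.79, 12.05, 13.57 and 13.27 in the fasted livers and 12.53, 13.36, 12.83 and 13.21 in the refed livers. The fasted liver of replicate 2 was the lowest and that of replicate 3 the highest of the 8. Fasted over refed, it was at 0.26, -1.31, 0.75 and 0.05 on the log2 scale, with a mean of -0.06 ± 0.88 (SD, n = 4) and an adjusted p of 0.939. Only 0.969% of the kept probes had an SD as large. Without replicate 2 the mean was 0.35 with an adjusted p of 0.302.

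Baat, which conjugates bile acids, was among the steadiest members (probe at chr4:49502933-49502992, minus strand). Its log2 levels lay between 10.49 and 10.70 in the fasted livers and between 10.46 and 10.66 in the refed livers. The mean log2 ratio was 0.04 ± 0.13 (SD, n = 4), with a 95% interval of -0.15 to 0.23 and an adjusted p of 0.851. The interval leaves out a change of 1.5-fold in either direction.

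**Figure D3:**
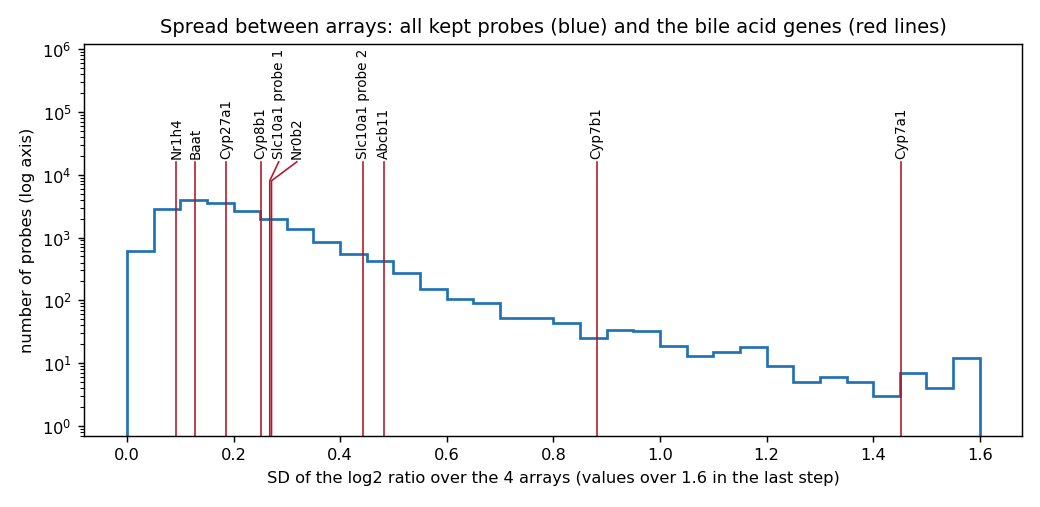
Distribution of the SD of the log2 ratio over the 4 arrays for all 19721 kept probes (blue, logarithmic counts) and the SD of each of the 10 probes (red lines). Cyp7a1 at 1.45 and Cyp7b1 at 0.88 lie in the sparse right tail, and Nr1h4 at 0.09 and Baat at 0.13 lie left of the median of 0.18.

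Of the receptors, Nr1h4, the bile acid receptor FXR, had log2 levels of 12.997, 12.88, 12.75 and 12.82 in the fasted livers and 12.86, 12.74, 12.44 and 12.54 in the refed livers (probe at chr10:88917222-88917281, minus strand). On each array the fasted liver was the higher, although the groups overlapped. The log2 ratios were 0.13, 0.14, 0.31 and 0.28. Their mean was 0.22 ± 0.09 (SD, n = 4), with a 95% interval of 0.04 to 0.39, an unadjusted p of 0.0243 and an adjusted p of 0.154 in limma. With a dye term the adjusted p was 0.0483, and the change of 1.16-fold stayed under the fold limit. The SD was the smallest of the 10 probes, and 85% of the kept probes had one at least as large.

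Nr0b2, the repressor SHP, is an FXR target in liver (probe at chr4:133109694-133109753, plus strand). Its log2 levels were 7.16, 8.40, 8.88 and 8.49 in the fasted livers and 7.58, 8.20, 9.05 and 8.81 in the refed livers. Both livers of replicate 1 were lower than the other 6. Its log2 ratios were -0.42, 0.20, -0.17 and -0.32, with a mean of -0.18 ± 0.27 (SD, n = 4) and an adjusted p of 0.442. The fasted liver was the lower on 3 of 4 arrays, a difference that did not pass the test.

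Of the transporters, Abcb11, the bile salt export pump, had log2 levels of 12.23, 12.46, 13.15 and 12.76 in the fasted livers and 12.44, 13.23, 12.81 and 12.66 in the refed livers (probe at chr2:69076365-69076424, minus strand). The log2 ratios were -0.22, -0.78, 0.34 and 0.10, with a mean of -0.14 ± 0.48 (SD, n = 4) and an adjusted p of 0.729. The mean was -0.50 where the fasted liver carried Cy5 and 0.22 where it carried Cy3, with a dye term of -0.36 ± 0.10 (SE) and an adjusted p of 0.0989. Without replicate 2 the mean turned to 0.07. The sign of this dye term is opposite to that of Cyp7a1.

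Slc10a1, the sodium-dependent bile acid uptake carrier, had 2 probes that differ in how many other probes share their letters. The sequences are shown because of this difference. Probe 1 lies at chr12:82061470-82061529 on the minus strand, lists 1 accession and shares no run of 16 bases with another probe. Probe 2 lies at chr12:82056539-82056598 on the minus strand, and the files list 4 accessions for it, those of Slc10a1, 4930402H24Rik, Spc24 and Med16. It shares a run of 16 bases with 15 other gene probes, and capitals mark the run that 7 of them hold in the first 30 bases of probe 2.
Slc10a1 probe 1: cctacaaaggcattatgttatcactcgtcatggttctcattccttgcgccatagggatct
Slc10a1 probe 2, bases 1 to 30: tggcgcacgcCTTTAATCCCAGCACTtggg
The letters of probe 2 read like the B1 repeat, a short interspersed element found throughout the mouse genome.

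For probe 1, the log2 levels of Slc10a1 were 11.88, 11.78, 11.53 and 11.47 in the fasted livers and 12.09, 11.43, 11.59 and 11.69 in the refed livers. The log2 ratios were -0.21, 0.35, -0.06 and -0.22, with a mean of -0.03 ± 0.27 (SD, n = 4), a 95% interval of -0.31 to 0.24 and an adjusted p of 0.910. For probe 2, the log2 ratios were 1.002, 0.32, -0.07 and 0.42, with a mean of 0.42 ± 0.44 (SD, n = 4), an unadjusted p of 0.0435 and an adjusted p of 0.213. Of the 15 probes that share a run with probe 2, 12 were kept, and their mean ratios ran from -0.04 to 0.33 with a median of 0.17. The value of probe 2 is uncertain as a reading of Slc10a1, since its letters are shared with probes of other genes.

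Differences between members on the same array were compared for pairs that face each other in the pathway, by an exact two-sided sign-flip permutation test over 4 arrays. With 4 arrays the smallest p is that of 2 among 16 sign patterns, above the usual threshold. Cyp7a1 minus Cyp8b1 was -1.65 ± 1.30 (SD, n = 4), negative on all 4 arrays from -0.43 to -3.35, with this smallest exact p and an adjusted p of 0.625 over the 5 differences. Cyp7a1 minus Cyp27a1, the first enzymes of both routes, was -0.76 ± 1.54 (SD; exact p of 0.5). Nr0b2 minus Nr1h4 was -0.39 ± 0.31 (SD; exact p of 0.25). Abcb11 minus Slc10a1 was -0.10 with probe 1 and -0.56 with probe 2 (exact p of 0.875 and 0.375). This test cannot pass the usual threshold with 4 arrays for any pair.

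Other genes of the pathway were read in 4 lists, each gene by its brightest kept probe. Over all 16054 genes read this way, 1.82% were called higher, 2.13% were called lower, and the median ratio was 0.0032. Among 19 kept of 22 names listed as synthesis enzymes, 0 were called higher and 2 lower, with a median of 0.19. The list is wider than the enzymes of bile acid synthesis. It holds Star, under 2 names, and the Baat relatives Acnat1 and Acnat2. Acnat2, a peroxisomal acyltransferase of the Baat family, fell on every array, at -1.10, -0.96, -1.01 and -1.08, with a mean of -1.04 ± 0.06 (SD, n = 4) and an adjusted p of 0.00277. Cyp2c70, which makes the muricholic acids of mice, was at -1.22, -3.11, -1.14 and -0.67, with a mean of -1.53 ± 1.08 (SD, n = 4) and an adjusted p of 0.0707. The call was lost without replicate 1 (-1.64, adjusted p of 0.120) and without replicate 3 (-1.66, adjusted p of 0.168), with ratios no smaller than in the full fit. Without replicate 2 the ratio was -1.01 and was called (adjusted p of 0.0527), and with a dye term the adjusted p was 0.0184. The largest ratio of the list was that of Slc27a2, an acyl-CoA synthetase of bile acid and fatty acid metabolism, at 0.58 ± 0.15 (SD, n = 4; adjusted p of 0.0198), just under the fold limit.

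Of the regulators, 21 of 22 listed genes were kept, with 2 called higher, 0 called lower and a median of 0.13. Ppargc1a, a co-activator of nuclear receptors, rose on every array, at 0.97, 1.33, 1.25 and 1.25, with a mean of 1.20 ± 0.16 (SD, n = 4) and an adjusted p of 0.00339. Nr1i2, the receptor PXR, which senses foreign compounds and toxic bile acids, rose by 0.75 ± 0.41 (SD, n = 4; adjusted p of 0.0478), with ratios of 0.30 and 0.49 on replicates 1 and 2 and 1.13 and 1.07 on replicates 3 and 4. Its dye term was -0.35 with an adjusted p of 0.0439, and in the model with that term the adjusted p of its rise was 0.00218. Its call was lost without replicate 2, 3 or 4, at ratios of 0.83, 0.62 and 0.64 (adjusted p of 0.111, 0.165 and 0.151). Foxo1, a transcription factor of the fasting response that is named here after its value was seen, was past the fold limit but not called, at 0.62 ± 0.51 (SD, n = 4; adjusted p of 0.116). The lowest ratio was that of Fgfr4, the hepatic receptor of the intestinal hormone FGF15, at -0.33 ± 0.18 (SD, n = 4; adjusted p of 0.0967), under the fold limit.

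Of the other transporters, 21 of 23 listed genes were kept, with 0 called higher, 1 called lower and a median of 0.06. Slc10a2, the apical sodium-dependent bile acid transporter of ileum and bile ducts, fell on every array, at -0.85, -1.21, -1.29 and -1.19. Its mean was -1.14 ± 0.20 (SD, n = 4) with an adjusted p of 0.00469, and it was called with any 1 array left out. Slc10a2 is also 1 of the 10 cholangiocyte and gallbladder markers. Without Slc10a2, the mean ratio of the other 9 was 0.01, -0.07, -0.23 and 0.21, and 4 of the 10, among them Krt7 and Epcam, were not well above background in any liver. Of the other 4 markers detected in every liver, Krt19, a bile duct keratin, was below 0 on all arrays, at -0.15, -0.17, -1.19 and -0.11, Slc4a2 was above 0 on all arrays, at 0.13, 0.31, 0.39 and 0.06, and Spp1 and Sox9 had both signs. The part of bile duct cells in the Slc10a2 value was not tested. The largest ratio of the list was that of Slco1a4, an organic anion carrier, at 0.62 ± 0.63 (SD, n = 4; adjusted p of 0.183).

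Of 12 listed detoxification genes 8 were kept, with 1 called higher, 0 called lower and a median of 0.17. Cyp2b10, a cytochrome P450 induced through the receptor CAR, was at 1.83, 1.14, 0.65 and 0.28, with a mean of 0.97 ± 0.67 (SD, n = 4) and an adjusted p of 0.0714. Its dye term was 0.51 with an adjusted p of 0.0709, and in the model with that term the adjusted p of its rise was 0.00665. Its call was lost without replicate 2 or 3, at ratios of 0.92 and 1.08 (adjusted p of 0.205 and 0.161). Gsta3, a glutathione transferase, had the lowest ratio at -0.35 ± 0.20 (SD, n = 4; adjusted p of 0.0941), under the fold limit. Over the 4 lists, Acnat2, Ppargc1a and Slc10a2 were called with any 1 array left out, whereas the calls of Cyp2c70, Nr1i2 and Cyp2b10 were not. Of these 6 genes, 3 had a second, dimmer kept probe. The second probes of Acnat2 (-0.93) and Slc10a2 (-1.76) were also called, and that of Ppargc1a (0.45, adjusted p of 0.0417) was under the fold limit.

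**Figure D4:**
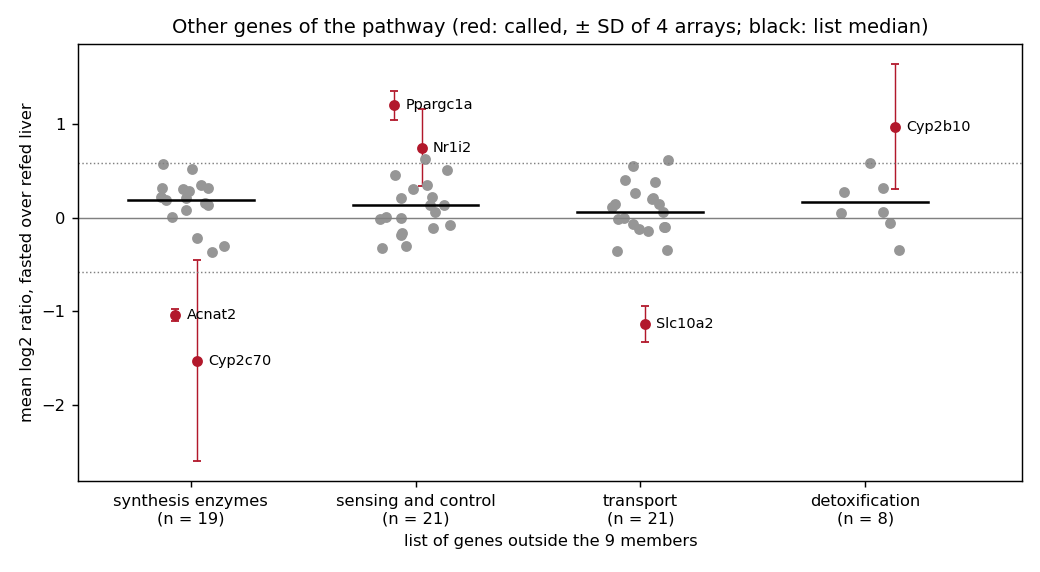
Mean log2 ratio of fasted over refed liver for the kept genes of the 4 lists, with called genes in red (± SD of the 4 arrays), list medians as black lines and the 1.5-fold limits dotted. Ppargc1a, Nr1i2 and Cyp2b10 lie above the upper limit and Acnat2, Cyp2c70 and Slc10a2 below the lower. The uncalled genes Slco1a4 and Foxo1 (both 0.62) also lie above the upper limit, and the medians lie between 0.06 and 0.19.

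Genes close to a member were found by Euclidean distance over the 4 log2 ratios among 16045 other genes. Close to Cyp8b1 were Elmod3 at a distance of 0.33 and St3gal5, a ganglioside sialyltransferase, at 0.35. St3gal5 had ratios of 0.74, 1.54, 0.82 and 0.999, and replicate 2 was its highest array as it was for Cyp8b1. Nearest to Cyp7a1 were Noct, which encodes nocturnin, at 1.03, Pes1, a ribosome assembly factor, at 1.11 and Cyp26b1, a retinoic acid hydroxylase, at 1.28. Noct had ratios of 0.88, 1.18, -0.71 and -1.66, positive where the fasted liver carried Cy5 and negative where it carried Cy3, as for Cyp7a1. Pes1 was at 0.67, -0.19, -1.49 and -1.82 and Cyp26b1 at 0.60, -0.21, -1.95 and -2.61, so that both were below 0 on replicate 2, where the fasted liver carried Cy5. Distances grow with the spread of the ratios, so those around Cyp7a1 and Cyp8b1 are not comparable. The distances describe 4 arrays and carry no test.

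**Figure D5:**
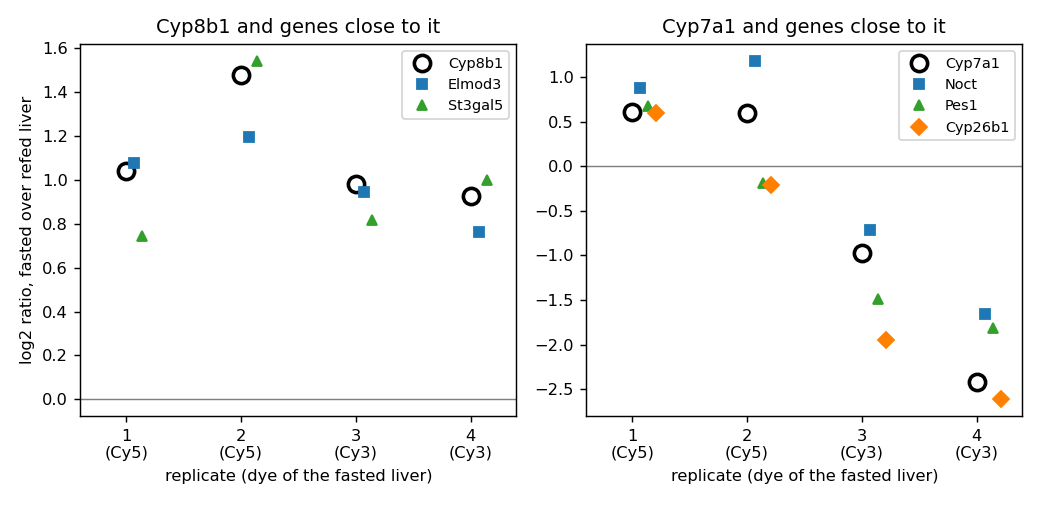
Log2 ratio of fasted over refed liver on each array for Cyp8b1 (left) and Cyp7a1 (right) and genes close to each (2 and 3), with the dye of the fasted liver under the replicate. All points around Cyp8b1 lie above 0.74, while those around Cyp7a1 fall below 0 on replicates 3 and 4.

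Nearest to probe 2 of Slc10a1 were Pml at a distance of 0.16, Ttc38 at 0.16 and Med16 at 0.22. The probes of Ttc38 and Med16 share a run of 13 bases with each other, marked in capitals in the 30 bases shown, and Med16 is also among the accessions listed for probe 2. With probe 2 itself the longest shared runs were 7 bases for Ttc38, 5 for Med16 and 8 for Pml. Whether these probes hold another part of the same repeat was not tested.
Ttc38 probe (chr15:85688096-85688155): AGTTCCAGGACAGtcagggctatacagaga
Med16 probe (chr10:79357669-79357728): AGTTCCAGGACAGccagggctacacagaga
Their ratios were close to those of probe 2 on each array, from 0.87 to -0.01 for Ttc38 and from 0.86 to -0.08 for Med16.

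Promoter letters were read from RefSeq (GRCm38.p6), from 250 bases before to 50 bases after each start site, which held 7 promoters for 6 of the 9 genes. Cyp7a1, Cyp7b1 and Baat had no entry. The windows shown hold either an inverted repeat of nuclear receptor half-sites, the kind that FXR binds, or the extended half-site of the NR5A receptors, the family of the bile acid gene regulator Nr5a2, in capitals.
Abcb11 (chr2:69342658-69342687, minus strand): tggactttAGGCCATTGACCTataagcaaa
Cyp8b1 (chr9:121916347-121916376, minus strand): tgagcaaagtcCAAGGGCAggaacctttgc
Nr0b2 (chr4:133553164-133553193, plus strand): taaagtgatagCAAGGCCAcgtggagcttc
On both strands, AGGNCANTGNCCT was found in 29 of 32851 promoters (0.0883%) and among these 6 genes in Abcb11 alone, 63 to 51 bases before the start site. CAAGGNCA was found in 6.71% of promoters, and among the members in Cyp8b1 and Nr0b2, 60 to 53 and 201 to 194 bases before the start site. The single half-site AGGTCA, which overlaps the repeat in Abcb11 on the other strand, was found in 16.3%, and also in Nr1h4 and in 1 of the 2 promoters of Slc10a1. A match describes letters only. The called gene Cyp8b1 and the uncalled gene Nr0b2 both hold the NR5A letters. The letters TGACG, a half-site of the cAMP response element, were found in 20.8% of promoters and among these 6 genes in Cyp8b1 alone, at bases 43 to 47 counted from the start site as base 1. TATAA was found in 24.9% of promoters and in Cyp8b1, Nr0b2, Slc10a1 and Abcb11.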

How the data were processed

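Total RNA (200 ng per liver) was amplified, labelled in a dye swap and hybridised to whole mouse genome arrays on 1 slide, scanned once. Each deposited scanner file holds unnormalized intensity (pixel medians and means), local background and quality flags of 0 or 1 for every spot, made by the authors with Agilent's Feature Extraction (10.10.1.1 per the file headers), plus the software's processed intensity. The authors also deposited log2 ratios normalized by print-tip loess in limma, with the background step not stated. Their columns run as fasted over refed, with medians of -0.117 to 0.057, and correlated with the ratios used here at 0.528 on replicate 1 and 0.921 to 0.957 on the others over all rows, and at 0.975 to 0.992 over the kept probes.

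Median signals were read in R 4.3.3 with limma 3.58.1. Spots with a local background over 3 times the array's median were left out (55 of 177588), normexp (offset 50) corrected the background, and ratios were normalized by loess without control spots. Flagged spots (197 to 322 per array) were left out, no spot was saturated, and spots of a probe were averaged. Log2 levels are channel values after Aquantile normalization, compared within a probe only. The 4 ratios were tested with lmFit and eBayes, two-sided and without a dye term, and p-values were adjusted over the kept probes by the Benjamini-Hochberg method. The methods' SAM was rebuilt with 16 sign flips as an alternative. Livers came from different mice.

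Probes were named by RefSeq accession (26055), current symbol (3195), synonym (930) or the file's name (9249). Named are all members, each list's called genes with its highest and lowest ratio, and the 3 nearest genes of the 3 members with the largest mean ratio by size without sign, and 1 gene selected this way is left out. The members, the lists and the step on local backgrounds were chosen with earlier results of these data known. Only the fit, the call rule and the rebuilt SAM were run on simulated data, drawn as independent ratios with the SD of each probe. Background correction, loess and filters were not simulated. Alternatives covered background, source of values, normalization, filters, flags, dye term, separate channels, test, thresholds, choice of probe and arrays left out.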

Additional observations from a re-analysis of the deposited data

Results flagged for a closer look

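Among 37 sets of 4 values examined (the ratios and levels of the 10 probes and the ratios of 7 marker lists), 1 had a value far from the other 3 by Dixon's ratio. The mean log2 ratio of the pancreatic acinar list was -3.39 on replicate 3, against -0.05 to 0.02 on the other arrays. All 16 genes of that list were lower in the fasted than in the refed liver of that array. Chance marks about 1 in 20 such sets. The ratios of the members on replicate 3 were not set apart by the same measure, and its part in them was not tested.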

How the results depend on the processing

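Each member probe was recomputed under 19 alternatives. The call of Cyp8b1 held under all but 1 of them, with ratios between 0.98 and 1.21 where it held. Several of those, among them the filters, the dye term and the limits on p and fold, leave its ratio unchanged at 1.11. The exception was normexp fitted on all spots, which gave a ratio of 0.75 with an adjusted p of 0.559, 0 member probes called higher, and 5 probes higher and 14 lower among all probes. Under it the SD of the ratios fell from 0.38 to 0.21 on replicate 3 and from 0.39 to 0.19 on replicate 4, and was the same on replicates 1 and 2; Cyp8b1 was then at 0.20 and 0.29 on replicates 3 and 4. No member was called lower under any alternative.

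Among all probes, subtracted background gave 550 higher and 714 lower, Agilent's processed signals 686 and 904, no fold limit 935 and 1215, and median centring 230 and 635, against 335 and 410 in the reported fit. With 1 array left out, 208 to 412 probes were higher and 256 to 525 lower, the fewest without replicate 3. The cause was not tested.

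The mean ratio changed sign for 5 uncalled probes: Baat to -0.096 with median centring, probe 1 of Slc10a1 to 0.034 with Agilent's processed signals, and 4 with 1 array left out. These leave-one-out means ran from -0.93 to 0.077 for Cyp7a1 (above 0 without replicate 4), from -0.33 to 0.35 for Cyp7b1 and from -0.30 to 0.074 for Abcb11 (both above 0 without replicate 2), and from -0.16 to 0.027 for probe 1 of Slc10a1 (above 0 without replicate 1 or 4). Slc10a1 as a gene was at 0.42 by its brighter probe 2 and 0.19 as the mean of both. Each array holds both conditions, so the test on ratios is already paired within arrays.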
